A study of Mus musculus with 6 samples.

Results

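The genes described here supply protein synthesis with charged tRNAs and answer when amino acids run short. They are 44 listed genes: 20 aminoacyl-tRNA synthetases, 9 amino acid transporters, 8 enzymes that make asparagine, serine and one-carbon units, and 7 genes made up of ATF4, its relatives and its targets. A gene counted as measured when at least 1 probe set of the array was linked to it alone, which held for 42 of the 44 among 19938 measured genes, and the probe set with the highest mean stood for it. The synthetases Aars and Dars are not analysed here, which leaves 18 synthetases.

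RNA was taken from 3 mouse cell populations, 2 arrays each, and all of them carry the Nup98-HoxB4 fusion. HSC, named hematopoietic stem cells in the labels, are bone marrow cells expanded in culture with IL6 and SCF, ProT are such cells steered to the T lineage with the Notch ligand DLL4 and IL7, and DP are double positive thymocytes that formed after ProT cells were put into Rag2-/- mice. The question of the series is how gene activity changes over these stages. The sources used here do not state strain, age, the number of mice or how DP cells were purified. HSC and ProT grew in different media while DP cells formed in an animal, so stage and surroundings cannot be told apart.

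Synthetases join each amino acid to its tRNA, and the transporters listed bring amino acids through the cell membrane. When uncharged tRNA builds up, the kinase GCN2 phosphorylates the initiation factor eIF2; bulk translation slows, but the Atf4 message is translated more, and the ATF4 protein switches on synthetases, transporters, asparagine synthetase and serine synthesis. Because this control acts largely on translation, the Atf4 message does not by itself report ATF4 activity. Proliferating T lineage cells are known for high amino acid uptake and one-carbon metabolism.

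Values are log2 signals, so a difference of 1 is 2-fold, and changes are log2 changes with the standard error (SE) from limma. A gene was called when its Benjamini-Hochberg adjusted p over all 19938 genes lay below 0.05. A mean below 7.17, the median of all gene values, may be background, and a change against such a mean is only a lower bound on its size. Over all probe sets the median signal of an array was 6.90 and 6.91 in DP and 6.73 to 6.77 in HSC and ProT. The median gap between replicate arrays over the 42 genes was 0.19 in HSC, 0.11 in ProT and 0.07 in DP, beside 0.12, 0.10 and 0.08 over all genes. Nothing in the labels tells whether the 2 arrays of a population had separate cultures or animals behind them, so the p-values rest on a spread that may be technical. All 6 double positive thymocyte markers examined (Cd4, Cd8a, Cd8b1, Rag1, Rag2 and Dntt) were higher in DP than in ProT, and all 5 measured T lineage markers were higher in ProT than in HSC. In DP against ProT 1 T lineage marker was higher (Cd3e) and 2 lower (Gata3 and Cd7). Of 6 progenitor markers 2 were lower in ProT than in HSC (Mpo and Csf3r) and 1 higher (Kit). Of 5 mast cell markers 4 were higher in ProT than in HSC, with Mcpt4 averaging 11.30 in ProT and 4.97 in HSC.

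Almost the whole change of these genes fell on the step into double positive cells. In DP against ProT, 33 of the 42 genes were lower and 3 were higher, where 18.1% of all genes were lower and 14.5% higher. Among the 10167 genes with a mean signal at or above 7.17, 30.9% were lower and 20.7% higher. The list was chosen with earlier results of these data known, so its counts beside these shares are a description and no test. The median change of the 42 genes was -0.86, beside 0.02 over all genes. A fall of at least 2-fold was called for 17 of the 42 and a rise of that size for 1, where 7.12% of all genes had such a fall and 4.41% such a rise. Without DP replicate 2 the genes lower numbered 21, and under 3 other normalizations 28 to 31. Centring the arrays on their medians over all measured genes, not over all probe sets, put the median change of all genes at 0.13. Then 60.2% of all calls were higher, against 44.6% in the main fit. After quantile normalization 54.4% of all calls were higher. In bulk RNA, fewer cells of a type and less RNA per cell cannot be told apart.

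ProT against HSC was the quieter step. Only Ddit4 and Sars were higher and only Asns and Psat1 lower of the 42 genes, which is 4.76% in each direction, where 7.85% of all genes were higher and 6.9% lower. Changes of at least 2-fold were called for 1 gene in each direction, Ddit4 and Asns, where 3.47% of all genes were higher and 2.7% lower by that much. The median change of the 42 genes was 0.01, beside -0.01 over all genes. Median centring gave 5 lower genes here, as did leaving out HSC replicate 1, while leaving out HSC replicate 2 gave 4 and 1 higher gene. With that centring 42% of all calls were higher, against 53.2% in the main fit. In DP against HSC, 29 genes were lower and 4 higher, where 18.8% of all genes were lower and 16% higher, with a median of -0.78 beside 0.02. Of these, 17 fell and 1 rose at least 2-fold, where 8.66% and 5.12% of all genes did so. The ProT arrays enter both steps and the DP arrays enter 2 of the 3 comparisons. By mean signal, 36 of the 42 genes were lowest in DP.

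**Figure D1:**
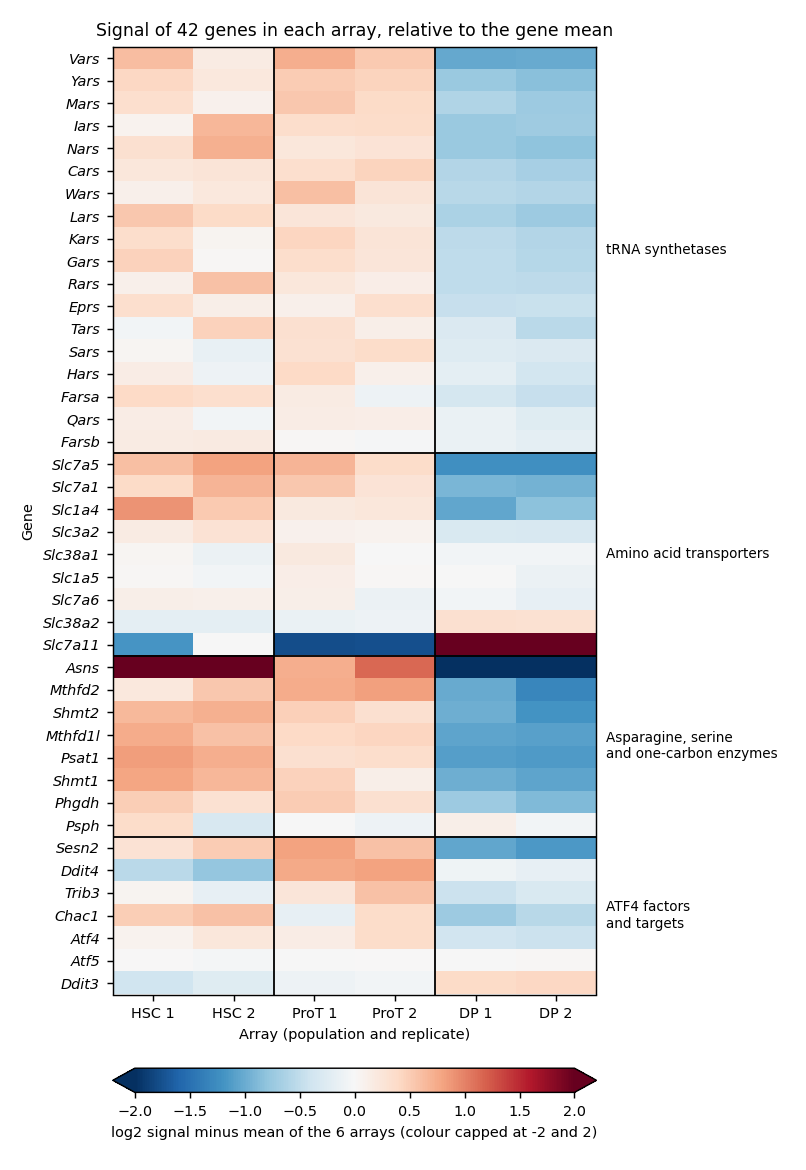
Signal of the 42 measured genes in each of the 6 arrays, as log2 signal minus the gene's mean over the arrays (colour, capped at -2 and 2). Rows are genes grouped by role and ordered within a role by DP minus ProT, and columns are arrays in stage order. DP holds the lowest mean of 36 genes, among them all 18 synthetases, while Slc7a11, Slc38a2 and Ddit3 are highest there.

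The letters of the ATF4 binding element were found in several promoters of the listed genes. The core TGATGNAA, bound by ATF4 together with C/EBP factors, was searched on both strands of RefSeq promoter windows of the GRCm38.p6 build, each running from 250 bases before to 50 bases after a start. Windows existed for 32 of the 42 genes (36 windows), and 9 of the 36 held the core (25%), against 1304 of all 32851 windows (3.97%). In the 250 bases upstream alone it was 5 of 36 (13.9%) against 3.45%. The E-box CACGTG, bound by MYC among others, was in 3 of the 36 windows (8.33%), against 7.15% of all windows. A match is a description of letters, not a bound site. The list includes genes chosen as ATF4 targets, so its share of the core reflects that choice and is no test. The upstream stretches around the core are shown 5′ to 3′ on the gene's strand, with the core or its reverse complement in capitals, because they include the gene that fell most and the gene that rose most among the 42.
Asns, chr6:7693210-7693272, minus strand: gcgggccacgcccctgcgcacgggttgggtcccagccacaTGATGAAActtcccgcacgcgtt
Slc7a11, chr3:50443614-50443719, minus strand: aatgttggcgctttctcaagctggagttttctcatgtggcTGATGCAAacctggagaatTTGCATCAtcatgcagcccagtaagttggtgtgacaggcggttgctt
Chac1, chr2:119351009-119351096, plus strand: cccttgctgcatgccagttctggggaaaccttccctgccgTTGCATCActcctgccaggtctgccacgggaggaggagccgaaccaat
Gars, chr6:55037931-55038000, plus strand: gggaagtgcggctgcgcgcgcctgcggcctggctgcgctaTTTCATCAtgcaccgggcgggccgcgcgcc
Tars, chr15:11399659-11399713, minus strand: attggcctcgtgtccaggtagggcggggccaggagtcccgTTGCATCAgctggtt
The core began 23 bases before the start in Asns, 66 and 47 bases before it in Slc7a11, 193 in Chac1, 30 in Gars and 15 in Tars. Slc7a11 carries it once in each orientation, and its window belongs to a start inside the annotated span of the gene. Slc1a4 has the core across the start and Iars, Trib3 and Yars have it after the start, and those stretches are not shown.

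The synthetases moved as a block at the second step. Of the 18, 17 were lower in DP than in ProT and none was higher, where 18.1% of all genes were lower and 14.5% higher. The median change of the 18 was -0.86, with a range of -1.65 to -0.17. Vars, which charges valine tRNA, had the widest fall. Its signal was 11.58 and 11.12 in HSC, 11.69 and 11.49 in ProT and 9.94 and 9.95 in DP. Both DP arrays lay over 1 log2 unit below every other array, and the change in DP against ProT was -1.65 ± 0.16 (adjusted p = 0.000838). Yars, the tyrosine enzyme, followed at -1.27 ± 0.10, with 9.76 and 9.68 in DP against 11.02 and 10.96 in ProT. Mars (methionine), Iars (isoleucine), Nars (asparagine) and Cars (cysteine) also fell by 2-fold or more, at -1.13 ± 0.12, -1.09 ± 0.19, -1.02 ± 0.14 and -1.01 ± 0.08. These 6 are the synthetases called with a fall of at least 2-fold.

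The smaller falls were graded rather than uniform. Wars (tryptophan) changed by -0.998 ± 0.13, Lars (leucine) by -0.91 ± 0.09, Kars (lysine) by -0.90 ± 0.12 and Gars (glycine) by -0.83 ± 0.15. Rars (arginine) changed by -0.70 ± 0.16, Eprs, the joint enzyme for glutamate and proline, by -0.68 ± 0.12, Tars (threonine) by -0.64 ± 0.19 and Sars (serine) by -0.61 ± 0.09. Hars (histidine) at -0.53 ± 0.14, Farsa, the alpha subunit of the phenylalanine enzyme, at -0.44 ± 0.11 and Qars (glutamine) at -0.34 ± 0.09 closed the order of called genes. Farsb, the beta subunit of the same phenylalanine enzyme, did not pass: it had 10.29 and 10.23 in DP against 10.46 and 10.40 in ProT (-0.17 ± 0.07, adjusted p = 0.137). Tars lay close to the threshold (adjusted p = 0.0487). The calls of Farsa, Hars, Qars and Tars were lost under 1 or more of 3 other normalizations and when some single arrays were left out. Eprs, Gars, Iars and Rars no longer passed when either DP array was left out, nor did Rars when either ProT array was.

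The platform table links a pair of probe sets to Iars, whose positions were not checked, and both fell. The probe set used had 11.14 and 11.17 in DP against 12.23 and 12.26 in ProT, and the other had 10.57 and 10.62 in DP against 11.92 and 11.89 in ProT.

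Synthetase levels differed little between ProT and HSC. Sars was the 1 called gene, with 11.69 and 11.75 in ProT against 11.44 and 11.24 in HSC, a change of 0.38 ± 0.09 (adjusted p = 0.0426). This call was lost in 3 of 3 other normalizations, with dim genes left out, in the fit of these 2 populations alone, with the replicate number as a block (adjusted p = 0.0655), and without any 1 of 5 arrays (all but HSC replicate 1). The largest of the other changes were -0.34 ± 0.11 for Farsa, 0.27 ± 0.13 for Wars and -0.27 ± 0.14 for Nars, none past the test. Nars changed by -0.47 without HSC replicate 1 and by -0.07 without HSC replicate 2. Against HSC, 15 of the 18 were lower in DP and 0 higher, where 18.8% of all genes were lower and 16% higher. Tars lay close to the threshold (adjusted p = 0.0497), and its call was lost under 3 of 3 other normalizations. The calls of Eprs, Farsb, Gars, Iars, Kars, Rars and Wars were lost in at least 1 fit without a DP array. Vars (-1.41 ± 0.16), Nars (-1.29 ± 0.14) and Lars (-1.14 ± 0.09) led, and Hars, Qars and Sars did not pass at -0.31 ± 0.14, -0.24 ± 0.09 and -0.23 ± 0.09.

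**Figure D2:**
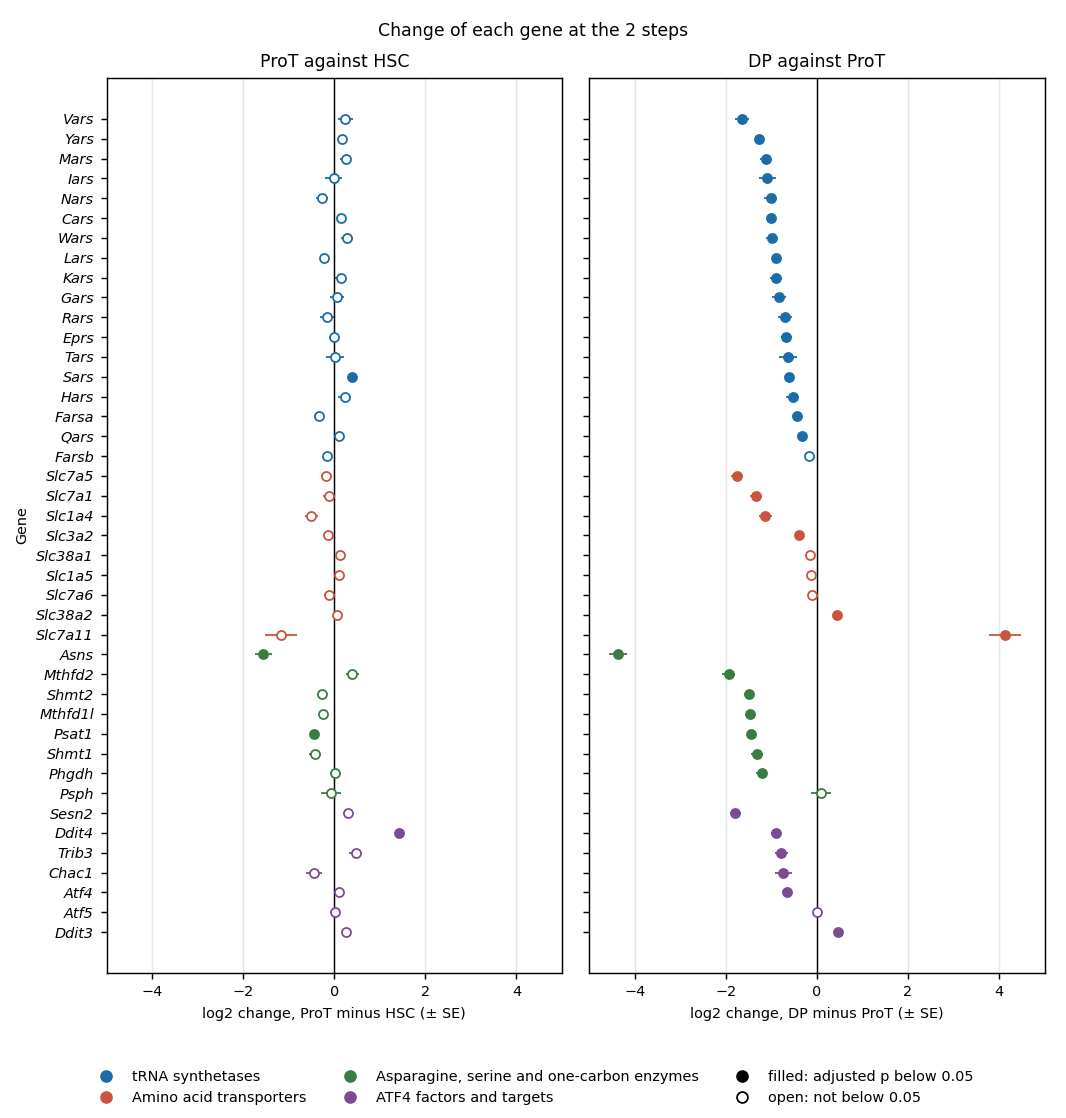
log2 change of each of the 42 genes with its SE, for ProT minus HSC (left) and DP minus ProT (right). Filled points have an adjusted p below 0.05. On the left 4 points are filled, and on the right 36 are, with 33 of them left of 0.

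Most synthetases of the mitochondrion are encoded by separate genes, while Gars and Kars each supply both compartments. Of 16 measured separate genes, 5 were lower and 4 higher in DP than in ProT, with a median change of -0.23. Over all genes 18.1% were lower and 14.5% higher. Among genes with a mean signal at or above 7.17, as all 16 had, the shares were 30.9% and 20.7%. Iars2 averaged 9.60 ± 0.02 in DP and 10.47 ± 0.08 in ProT (SD, n = 2 each), a change of -0.87 ± 0.08, and Rars2 and Yars2 changed by -0.72 ± 0.09 and -0.67 ± 0.195. Fars2 averaged 9.59 ± 0.08 in DP and 8.83 ± 0.09 in ProT, a change of 0.77 ± 0.13, and Mars2 and Vars2 changed by 0.59 ± 0.08 and 0.55 ± 0.09. Vars and Mars fell at this step while Vars2 and Mars2 rose. The difference between the lists was not tested. Against HSC, 7 of the 16 were lower and 3 higher in DP, and in ProT against HSC 1 was lower (Mars2, -0.74 ± 0.08) and 0 higher. Among all genes 18.8% were lower and 16% higher in DP against HSC, and 6.9% and 7.85% in ProT against HSC.

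**Figure D3:**
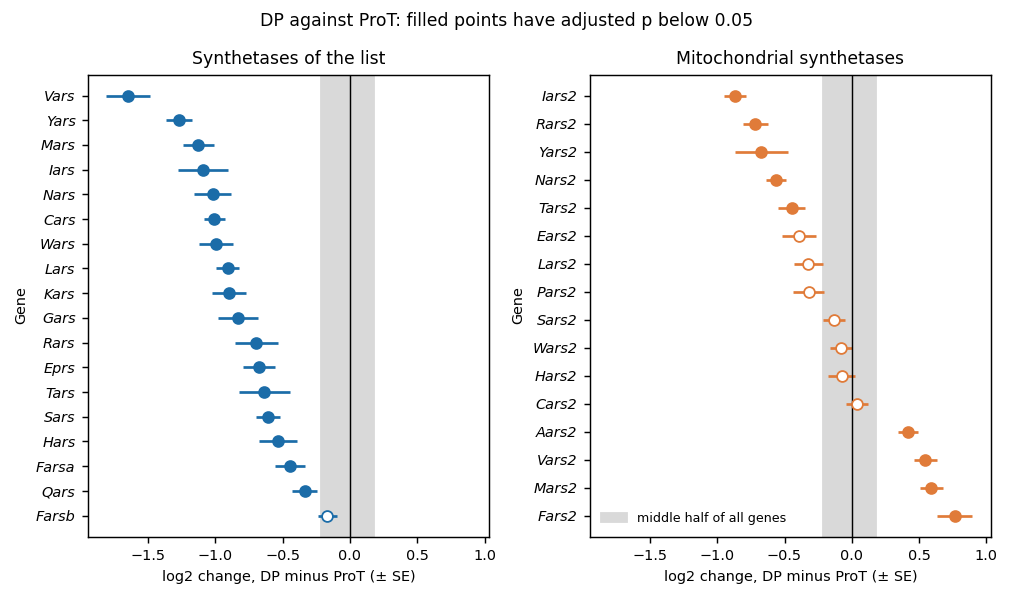
log2 change of DP minus ProT with its SE for the 18 synthetases of the list (left) and 16 mitochondrial synthetases (right); filled points have an adjusted p below 0.05. The grey band holds the middle 50% of all genes, from -0.21 to 0.18. All points on the left lie below 0, and 4 filled points on the right lie above it.

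Several synthetases sit in 1 cytoplasmic complex around non-enzymatic scaffold proteins. Of its 3 scaffold genes, Aimp2 averaged 9.20 ± 0.22 in DP and 10.46 ± 0.22 in ProT (SD, n = 2 each), a change of -1.26 ± 0.15, and Eef1e1 changed by -0.63 ± 0.16. Aimp1 did not pass.

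Of the 9 transporters, 4 were lower, 2 higher and 3 not called in DP against ProT, where 18.1% of all genes were lower and 14.5% higher. Among genes with a mean signal at or above 7.17 the shares were 30.9% and 20.7%. In ProT against HSC 0 were called in either direction, where 6.9% of all genes were lower and 7.85% higher. Slc7a5, the light chain of the exchanger that brings in leucine and other large neutral amino acids, had 12.06 and 12.26 in HSC, 12.14 and 11.83 in ProT and 10.23 and 10.22 in DP. Its change in DP against ProT was -1.76 ± 0.13 (adjusted p = 0.000274), a 3.38-fold fall. Slc3a2, the heavy chain that carries Slc7a5 and its relatives to the membrane, fell far less: it had 12.16 and 12.14 in DP against 12.55 and 12.54 in ProT (-0.39 ± 0.08). Its call was lost when arrays were centred on their medians (adjusted p = 0.0505) and when either DP array or ProT replicate 1 was left out.

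Slc7a1, which imports arginine and lysine, fell like Slc7a5. Its signal was 9.27 and 9.24 in DP against 10.73 and 10.46 in ProT, a change of -1.34 ± 0.14. Slc1a4, an exchanger of small neutral amino acids such as alanine and serine, had 8.22 and 7.85 in HSC, 7.52 and 7.54 in ProT and 6.28 and 6.49 in DP. It changed by -1.14 ± 0.14 in DP against ProT, with the DP mean below the median of all gene values, where a signal may be background. Slc1a5, the glutamine carrier, stayed between 11.38 and 11.62 in all 6 arrays (-0.13 ± 0.08 in DP against ProT, not passed), and Slc7a6, another partner of Slc3a2, changed by -0.10 ± 0.10.

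Slc38a1 and Slc38a2, neighbouring genes for sodium-coupled carriers of glutamine and alanine, did not run together. Slc38a2 had 12.31 and 12.30 in HSC, 12.36 and 12.39 in ProT and 12.81 and 12.80 in DP, with no overlap between DP and the rest. It rose by 0.43 ± 0.07 in DP against ProT (adjusted p = 0.00489). For Slc38a1 the result depended on the probe set. The brighter one, used here, had 11.61 and 11.61 in DP against 11.86 and 11.66 in ProT and did not pass (-0.15 ± 0.10). The dimmer one had 8.27 and 8.13 in DP against 9.38 and 9.15 in ProT, and with it Slc38a1 was called lower (-1.07, adjusted p = 0.00214).

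Slc7a11 moved against nearly everything else listed. It encodes the light chain of the exchanger that takes up cystine in return for glutamate and so feeds glutathione synthesis. The signal was 7.76 and 8.94 in HSC, 7.17 and 7.18 in ProT and 11.35 and 11.24 in DP. ProT arrays lay at the median of all gene values and both DP arrays far above every other array. The change in DP against ProT was 4.12 ± 0.35, a 17.4-fold rise (adjusted p = 0.000516) that ranked 78 by size among all 19938 genes. The HSC arrays differed from each other by 1.18. Against HSC the change in DP was 2.95 ± 0.35, between 2.36 (HSC replicate 1 left out) and 3.54 (HSC replicate 2 left out). ProT against HSC did not pass (-1.17 ± 0.35, adjusted p = 0.0889). It was called lower when dim genes were left out of the test (adjusted p = 0.0483). The change was -1.76 without HSC replicate 1 and -0.59 without HSC replicate 2. Such a fit drops the spread between the HSC arrays, so it cannot tell whether the fall passes.

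Markers of cells other than thymocytes moved with DP too. All 5 thymic epithelial markers were higher in DP than in ProT, with array means of the list from 7.99 to 8.01 in DP and from 6.36 to 6.37 in ProT. Ccl25 averaged 10.84 and Krt8 9.53 in DP, while Foxn1, Psmb11 and Krt5 averaged 6.37, 6.67 and 6.60, below the median of all gene values. Of 7 macrophage markers 5 were higher and 2 lower in DP (array means 7.41 to 7.43 in DP and 7.12 to 7.25 in ProT): C1qb averaged 9.47 and C1qc 8.22 in DP, and Adgre1 fell by 3.98 (with a DP mean below 7.17) and Cd68 by 1.46 on the log2 scale. All 4 measured B lineage markers were higher in DP, with array means of 6.60 to 6.63 in DP and 5.45 to 5.46 in ProT and all of them below the median of all gene values. Mast cell markers were lower in DP for 5 of 5, with array means from 5.84 to 5.88 in DP and 8.86 to 9.03 in ProT. Of 6 progenitor markers 4 were lower in DP, with array means of 7.78 to 7.93 in DP and 10.00 to 10.28 in ProT. Of 6 proliferation markers 2 were called lower in DP, Cdk1 (-0.72 ± 0.10) and Mcm2 (-0.66 ± 0.12), and 0 higher. Mki67 (0.87 ± 0.40), Pcna (0.36 ± 0.12), Top2a (0.00 ± 0.21) and Bub1 (-0.31 ± 0.41) did not pass. Array means of the list were 11.33 to 11.37 in DP and 11.13 to 11.72 in ProT. The ProT arrays differed widely for Mki67 (10.42 in replicate 1 and 11.76 in replicate 2) and Bub1 (9.71 and 11.08). The part of these cells and of cell division in the rise of Slc7a11 or in the falls was not tested.

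Of 22 measured transporters outside the list, 5 were higher and 4 lower in DP than in ProT, where 14.5% of all genes were higher and 18.1% lower. Slc43a1, a facilitator for branched-chain amino acids, averaged 11.15 ± 0.01 in DP and 8.81 ± 0.08 in ProT (SD, n = 2 each), a change of 2.34 ± 0.35. Slc38a9, the lysosomal arginine carrier that signals to mTORC1, rose by 1.33 ± 0.10 and Slc38a6 by 1.14 ± 0.17. Slc6a9, the glycine transporter, averaged 7.08 ± 0.26 in DP and 10.11 ± 0.07 in ProT, a change of -3.03 ± 0.15 that is a lower bound on the fall. Slc43a3, which carries purine bases rather than amino acids, changed by -1.13 ± 0.08 and Slc6a6, the taurine transporter, by -0.61 ± 0.12. In ProT against HSC 5 of the 22 were lower, led by Slc7a8 (-2.57 ± 0.26), Slc36a1 (-1.10 ± 0.13) and Slc36a4 (-0.98 ± 0.18, with a ProT mean below 7.17), and Slc6a9 alone was higher (1.52 ± 0.15). Against HSC 7 were lower in DP, led by Slc7a8 (-3.01 ± 0.26), Slc43a3 (-1.66 ± 0.08) and Slc6a9 (-1.51 ± 0.15, with a DP mean below 7.17), and 4 higher, led by Slc43a1 (3.01 ± 0.35), Slc43a2 (1.01 ± 0.10) and Slc38a9 (0.95 ± 0.10). Among all genes 18.8% were lower and 16% higher in DP against HSC, and 6.9% and 7.85% in ProT against HSC.

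**Figure D4:**
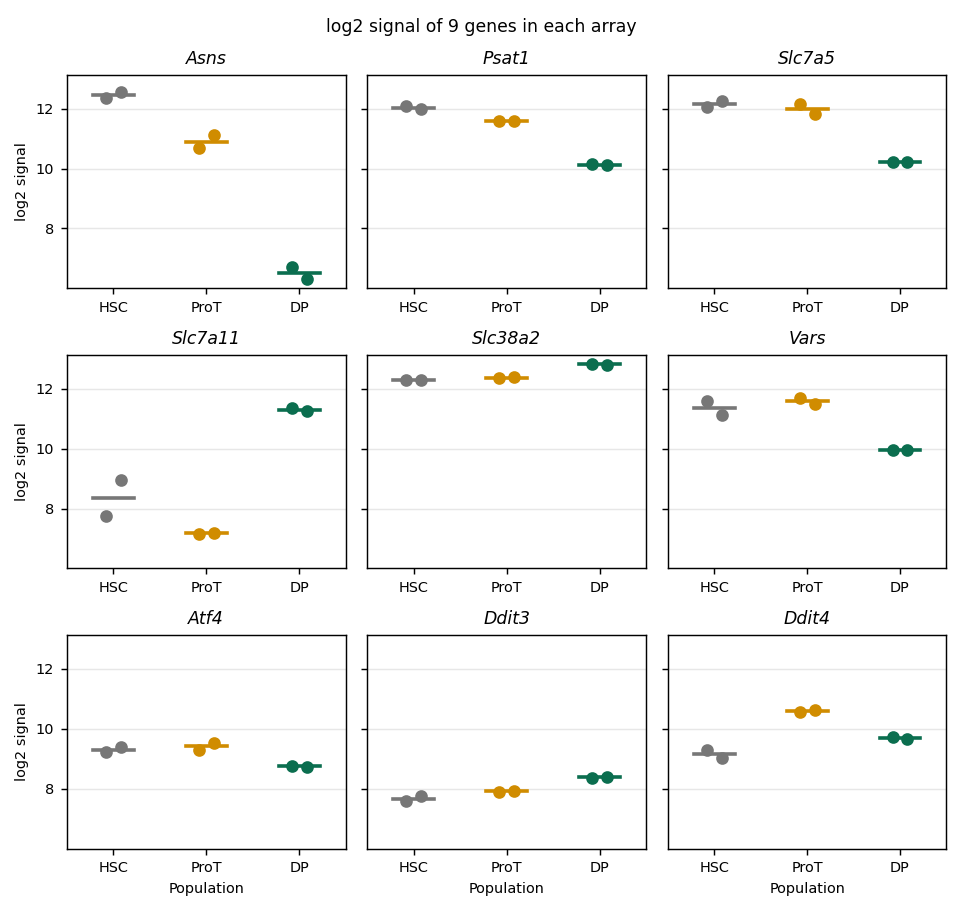
log2 signal of 9 genes in each array by population in stage order; points are arrays and bars are means of 2 arrays. Asns steps down at both changes of stage, Slc7a5, Vars and Psat1 are low in DP, Slc7a11, Slc38a2 and Ddit3 are highest in DP, and Ddit4 is highest in ProT.

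Asns had the largest fall of the 42 genes. It encodes asparagine synthetase, which makes asparagine from aspartate and glutamine and is a classical ATF4 target. Signals were 12.37 and 12.54 in HSC, 10.68 and 11.11 in ProT and 6.73 and 6.33 in DP. The 3 populations did not overlap, and both DP arrays were under 7.17, the median of all gene values. Asns changed by -1.56 ± 0.19 in ProT against HSC (adjusted p = 0.00391) and changed by -4.37 ± 0.19 in DP against ProT (adjusted p = 4.56e-05). The fall in DP was at least 20.7-fold against ProT and at least 60.9-fold against HSC, given as lower bounds because of the DP signal.

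Serine synthesis takes 3 enzymes, of which the first and second fell and the third did not pass. Phgdh, the first, had 9.75 and 9.59 in DP against 10.98 and 10.80 in ProT, a change of -1.22 ± 0.11. Psat1, the second, had 12.08 and 11.98 in HSC, 11.57 and 11.60 in ProT and 10.15 and 10.12 in DP. It fell at both steps, with a change of -0.45 ± 0.07 in ProT against HSC (adjusted p = 0.0124) and of -1.45 ± 0.07 in DP against ProT (adjusted p = 8.27e-05). The first of these calls was lost without ProT replicate 1 (adjusted p = 0.0639). Psph, the phosphatase of the last step, had 9.01 and 8.33 in HSC, 8.64 and 8.54 in ProT and 8.76 and 8.58 in DP. Its change of 0.09 ± 0.22 in DP against ProT did not pass, and its HSC arrays were 0.68 apart.

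One-carbon enzymes, which pass carbon from serine to nucleotide synthesis, fell together at the second step. Mthfd2, a mitochondrial enzyme, had 8.96 and 8.66 in DP against 10.71 and 10.78 in ProT, a change of -1.94 ± 0.15. Shmt2, the mitochondrial serine hydroxymethyltransferase, had 10.21 and 10.00 in DP against 11.67 and 11.52 in ProT (-1.49 ± 0.10). Its cytosolic counterpart Shmt1 changed by -1.31 ± 0.13, and Mthfd1l, which releases formate from mitochondria, by -1.48 ± 0.08. In all, 7 of the 8 enzymes fell by at least 2-fold, with Psph the exception, and the same count of 7 held in DP against HSC. Such falls were called for 7.12% of all genes in DP against ProT and for 8.66% in DP against HSC. Between ProT and HSC, Shmt1 (-0.43 ± 0.13), Mthfd2 (0.40 ± 0.15) and Shmt2 (-0.28 ± 0.10) did not pass, though Shmt1 did after median centring. Shmt1 changed by -0.60 without ProT replicate 1 and by -0.26 without ProT replicate 2.

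Of 9 other one-carbon and methionine cycle enzymes measured, 2 were lower and 1 higher in DP than in ProT. Among all genes 18.1% were lower and 14.5% higher at this step. Mthfd1, the cytosolic enzyme that takes up that formate, averaged 8.69 ± 0.10 in DP and 10.11 ± 0.16 in ProT (SD, n = 2 each), a change of -1.42 ± 0.14. Gcsh was called lower, but its means were below 7.17 in every population. Mthfd2l changed by 0.54 ± 0.13, with a ProT mean below 7.17. Mthfd2l (-0.63 ± 0.13) and Mtr, methionine synthase, (-0.54 ± 0.07) were lower in ProT than in HSC and 0 higher. Against HSC 3 were lower in DP (Mthfd1, Gcsh and Mtr) and 0 higher. Among all genes 6.9% were lower in ProT against HSC and 18.8% in DP against HSC.

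The ATF4 message moved less than most of these genes. Atf4 had 9.22 and 9.39 in HSC, 9.30 and 9.53 in ProT and 8.77 and 8.73 in DP. Both DP arrays were below the other 4, and the change in DP against ProT was -0.66 ± 0.11 (adjusted p = 0.00543), a call that was lost without DP replicate 2. ProT and HSC arrays overlapped. Atf5, a related factor, stayed between 7.45 and 7.52 in all 6 arrays, close to the median of all gene values.

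The feedback and stress targets of ATF4 took different courses. Sesn2, a leucine sensor that restrains mTORC1, had 7.38 and 7.26 in DP against 9.22 and 9.01 in ProT, a change of -1.79 ± 0.12 (adjusted p = 0.000194). Trib3, a pseudokinase that feeds back on ATF4, and Chac1, which degrades glutathione, changed by -0.78 ± 0.14 and -0.74 ± 0.18, with both DP means below the median of all gene values. Both calls were lost when either DP array was left out. Ddit3, which encodes the stress factor CHOP, rose instead: it had 7.58 and 7.74 in HSC, 7.89 and 7.93 in ProT and 8.37 and 8.39 in DP. Its change was 0.47 ± 0.08 in DP against ProT (adjusted p = 0.00802), lost when either DP array was left out, and 0.72 ± 0.08 in DP against HSC. Between ProT and HSC, Trib3 (0.47 ± 0.14), Chac1 (-0.44 ± 0.18) and Sesn2 (0.30 ± 0.12) did not pass. Trib3 changed by 0.64 without ProT replicate 1 and by 0.30 without ProT replicate 2. Chac1 changed by -0.18 and -0.71 in the same 2 fits. Ddit3 lies beside Mars with annotated ends that overlap by 71 bases, and the 2 genes changed in opposite directions.

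Ddit4, an mTORC1 inhibitor induced by stress, peaked in ProT. It had 9.28 and 9.04 in HSC, 10.57 and 10.61 in ProT and 9.72 and 9.65 in DP. The 3 populations did not overlap. The changes were 1.43 ± 0.10 in ProT against HSC (adjusted p = 0.000484), -0.90 ± 0.10 in DP against ProT (adjusted p = 0.00135) and 0.53 ± 0.10 in DP against HSC, the last lost when either DP array was left out. Ddit4 and Sars were the 2 genes called higher at the first step and lower at the second, and Asns and Psat1 the 2 called lower at both. The calls of Sars and Psat1 at the first step were lost in some other fits, and the ProT arrays enter both steps.

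Of the genes that control ATF4 production, the kinases diverged. Eif2ak4, which encodes GCN2, the sensor of uncharged tRNA, averaged 7.88 ± 0.09 in DP and 9.16 ± 0.05 in ProT (SD, n = 2 each), a change of -1.28 ± 0.09 (adjusted p = 0.000238). Eif2ak3, which encodes PERK, the kinase that responds to unfolded protein in the endoplasmic reticulum, averaged 10.35 ± 0.02 in DP and 9.49 ± 0.01 in ProT, a change of 0.86 ± 0.10 (adjusted p = 0.00162). The other 5 measured genes of that list were not called at this step, where 18.1% of all genes were lower and 14.5% higher. Among genes with a mean signal at or above 7.17 the shares were 30.9% and 20.7%. In ProT against HSC 1 of the 7 was called, Eif2ak2, the kinase that responds to double-stranded RNA (-0.91 ± 0.17). Against HSC, Eif2ak2 (-1.44 ± 0.17) and Eif2ak4 (-1.33 ± 0.09) were lower and Eif2ak3 (1.17 ± 0.10) higher in DP. Among all genes 18.8% were lower and 16% higher in DP against HSC, and 6.9% and 7.85% in ProT against HSC.

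Among 16 other partners and targets of ATF4, 7 were lower and 1 higher in DP than in ProT. Over all genes 18.1% were lower and 14.5% higher at this step. Gpt2, a mitochondrial alanine transaminase, changed by -1.56 ± 0.20 with a DP mean below 7.17, Eif4ebp1, the translation inhibitor 4E-BP1, by -1.56 ± 0.13 and Aldh18a1, which starts proline synthesis, by -1.27 ± 0.08. Gadd45a was the 1 that rose (0.47 ± 0.11). Against HSC 10 of the 16 were lower in DP and 0 higher, where 18.8% of all genes were lower and 16% higher. Among the 10 were Vldlr (-2.84 ± 0.35) and Gpt2 (-2.17 ± 0.20), both with DP means below 7.17. Against HSC 5 were lower in ProT and 0 higher, among them Vldlr (-2.48 ± 0.35, with a ProT mean below 7.17) and Cebpb, a dimer partner of ATF4 (-0.79 ± 0.09). Stc2 was also called, but was below 7.17 in both populations. In ProT against HSC 6.9% of all genes were lower and 7.85% higher.

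Amino acid sensing genes upstream of mTORC1 were mostly not called. Of 20 measured, 2 were higher and 2 lower in DP than in ProT. Calls at this step covered 14.5% of the 19938 genes upward and 18.1% downward. For genes with a mean signal at or above 7.17 they covered 20.7% and 30.9%. Rragd, a GTPase that recruits mTORC1 to lysosomes, averaged 8.82 ± 0.00 in DP and 7.26 ± 0.17 in ProT (SD, n = 2 each), a change of 1.56 ± 0.14, and Rragb changed by 0.48 ± 0.08 with a ProT mean below 7.17. Castor1, an arginine sensor, changed by -1.47 ± 0.23 and Rragc by -0.41 ± 0.10. In ProT against HSC 4 were higher, led by Sesn3 (1.39 ± 0.12), Castor1 (1.21 ± 0.23) and Rragd (0.97 ± 0.14), and Rragb was lower (-0.95 ± 0.08). Rragd in HSC and Rragb in ProT had means below 7.17, so these 2 changes are lower bounds on their size. Against HSC 4 were higher in DP, among them Rragd (2.53 ± 0.14, with the same limit), Sesn3 (1.62 ± 0.12) and Rptor (0.40 ± 0.11), and 2 lower, Lamtor4 (-0.98 ± 0.17) and Rragb (-0.47 ± 0.08). Across the 19938 genes, calls covered 7.85% upward and 6.9% downward for ProT against HSC. The matching shares for DP against HSC were 16% and 18.8%.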

How the data were processed

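Biotin-labelled RNA of 6 samples was measured on Affymetrix arrays, per the labels' protocols. The authors deposited log2 signals for 35556 probe sets, made with RMA and Partek per the submitters' processing notes, which give neither versions nor settings. Scanner files were not used here, so there are no detection calls, and 7.17, the median of all gene values, served as the guide to dim signals. A platform table linked 21789 probe sets to exactly 1 gene (19938 genes, 999 of them with several probe sets), and 1621 with several genes and 12146 with none were left out. Gene identifiers matched RefSeq for 21698 probe sets, with 0 symbols changed. The brightest probe set by mean represented a gene.

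Using limma 3.58.1 in R 4.3.3, 1 mean per population was fitted over all 6 arrays and moderated by eBayes (3 residual and 2.83 prior degrees of freedom); the code was tested on simulated data. P-values were adjusted by Benjamini-Hochberg across the 19938 genes, and calls needed a value below 0.05. The genes, lists and markers were chosen with earlier results of these data known. Changes are given for called members and for up to 3 members per role that were not called, and up to 3 called genes per direction are named from each other list. Promoter windows came from RefSeq (GRCm38.p6). Alternatives were quantile, median and cyclic loess normalization, a filter that kept 10774 genes at or above 7.17 in at least 2 arrays, other probe set rules, a trended robust prior, fits of 2 populations, a replicate block, stricter thresholds and leaving out each array. Tables were prepared with Python 3.11.15, pandas 2.3.3 and numpy 2.4.6.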

Additional observations from a re-analysis of the deposited data

How the results depend on the processing

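Precision is limited by how few arrays there are. Leaving out any array leaves 1 in its population, which is assumed to vary like the other populations. A call gained in such a fit can come from the spread that was dropped with the array. With 1 array left out in turn, the genes lower in DP than in ProT numbered 21 to 33 of 42 and those higher 2 to 3, with 21 without DP replicate 2. In DP against HSC they numbered 20 to 30 and 3 to 4, and in ProT against HSC 2 to 5 lower and 1 to 3 higher. Of the 36 genes called in DP against ProT, 23 kept their call and direction in all 15 other fits, and so did 23 of 33 in DP against HSC and 2 of 4 in ProT against HSC (Asns and Ddit4). Under the 3 other normalizations 31 of 36, 31 of 33 and 3 of 4 kept it. In ProT against HSC 1 gene was higher after quantile normalization, median centring, cyclic loess, the dim gene filter, the fit of 2 populations and the replicate block. Median centring gave 5 lower there. At an adjusted p below 0.01 that comparison had 1 higher and 1 lower, and with at least 2-fold also 1 and 1. The 2-fold threshold left 1 higher and 17 lower in DP against ProT and 1 higher and 17 lower in DP against HSC. Median centring moved the median of all genes in DP against ProT to 0.13, and the calls over all genes to 4522 higher and 2987 lower (2899 and 3607 in the main fit), while the listed genes gave 3 higher and 28 lower. In ProT against HSC it gave 1321 higher and 1821 lower over all genes (1565 and 1375 in the main fit). Quantile normalization gave 3629 higher and 3044 lower over all genes in DP against ProT, and 3 higher and 29 lower among the listed genes.

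The replicate numbers share no stated source, and same-numbered arrays did not deviate together (correlations of 0.06, -0.04 and -0.02). With the replicate block the counts were 3 higher and 32 lower in DP against ProT, 4 and 29 in DP against HSC and 1 and 2 in ProT against HSC.

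The alternatives were run for all 42 genes in both DP comparisons, and for the 16 genes whose change is given in ProT against HSC. Among these changes, signs turned for 5 genes that did not pass in the DP comparisons, and the cause was not tested. In DP against ProT, Atf5 became -0.0031 with cyclic loess and ran from -0.0039 to 0.0253 with 1 array left out. Psph ran from -0.0053 to 0.175 in the same way. Slc7a6 became 0.0133 with median centring and 0.0026 with cyclic loess, and ran from -0.217 to 0.0108. In DP against HSC, Atf5 became -0.0076 with cyclic loess, and Psph ran from -0.335 to 0.343 with 1 array left out. Slc1a5 became 0.0779 with quantile normalization and 0.0843 with cyclic loess, and ran from -0.0915 to 0.0167. Slc38a1 became 0.117 with quantile normalization, 0.0146 with median centring and 0.105 with cyclic loess, and ran from -0.101 to 0.0618.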
